A study of Mus musculus with 2 samples.

Results

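A set of 9 genes of leukocyte adhesion and homing, of 49315 genes in the deposited table, was compared between cells of mouse dorsal root ganglia, labelled as macrophages, under normoxia and under chronic intermittent hypoxia. The defining macrophage markers Adgre1, Cd68 and Csf1r had 1764, 1565 and 1326 counts in normoxia. In the far shallower hypoxia library they were at 0, so the label is used here as a name only. The 9 genes were chosen by symbol: Itgb2, Itgam and Itgal (beta-2 integrins), Itgb1 and Itga4 (a beta-1 integrin pair), Selplg and Cd44 (a selectin ligand and the hyaluronan receptor), and the chemokine receptors Cxcr2 and Cxcr4. In the hypoxia group, chamber oxygen fell from 21% to 8% in cycles of 6 min, 10 times an hour, for 8 h a day over 14 days. Normoxia mice had a sham regime with oxygen held at 21%, and tissue was taken about 18 h after the last session. Each group had 1 library, so no difference below could be checked against replicates, and intervals reflect counting error alone. Not given in the sources used here were strain, sex, age, the number of mice and how the cells were isolated. The hypoxia column was identified by the initial of its code, and its number matches neither library name.

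Leukocytes leave the blood in steps. Selectins and their ligands let a cell roll on the vessel wall, chemokine receptors signal to integrins, and activated integrins bind the wall firmly. Beta-2 integrins are restricted to leukocytes, with alpha-M beta-2 (Mac-1) prominent on neutrophils and macrophages and alpha-L beta-2 (LFA-1) on most leukocytes. Beta-1 integrins are found on many cell types, and alpha-4 beta-1 (VLA-4) binds Vcam1 and fibronectin.

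The normoxia library held 2171348 counts over 4640 genes and the hypoxia library 145056 over 2050, a 15.0-fold difference in depth. The labels name no molecular identifiers, which would tell copies of a molecule apart, so the reads behind 1 molecule were estimated as the median count of genes found in 1 library alone with at least 10 counts, which was 229 in normoxia and 39 in hypoxia. The libraries then come to about 9482 and 3719 molecules. The macrophage label was checked against 12 marker genes. In normoxia 11 of them were counted, at 1.08% of counts, and in hypoxia 2 (Apoe and Cx3cr1), at 0.176%. Of 13 neutrophil markers 10 were counted in each library, at 1.83% and 10.3% of counts. Other lists took 0.390% and 0.304% (6 monocyte markers), 9.53% and 7.87% (7 erythroid markers), 0.0360% and 0% (5 B cell markers), 0.0161% and 0% (8 T and NK cell markers, with Cd4 alone counted), 0.0483% and 0% (5 fibroblast markers), and 0.0144% and 0.0876% (4 satellite glia markers). Schwann cell markers came to 1 and 58 counts and sensory neuron markers to 0 and 60, and mast cell, platelet and endothelial markers had 0 in both.

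Promoter sequence is given for Itgam, the gene with the highest ratio among those counted in both libraries, and Cxcr4, which had no count in hypoxia. RefSeq (GRCm38.p6) entries were found for 6 of the 9 genes. The 250 bases before the transcription start were searched on both strands for 3 short motifs, and matches are in capitals. The first, GAGGAA, is a core bound by ETS factors such as PU.1 of myeloid cells. The second, TATAAA, helps place the start of transcription. The last, GGGCGG, is known as the GC box and is bound by Sp1. The windows are chr7:128062390-128062639 (plus strand) for Itgam and chr1:128592300-128592549 (minus strand) for Cxcr4.
Itgam: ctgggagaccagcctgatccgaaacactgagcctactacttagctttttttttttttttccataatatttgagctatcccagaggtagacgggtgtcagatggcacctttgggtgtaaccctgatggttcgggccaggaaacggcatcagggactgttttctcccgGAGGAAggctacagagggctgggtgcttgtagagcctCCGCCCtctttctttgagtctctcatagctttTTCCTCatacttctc
Cxcr4: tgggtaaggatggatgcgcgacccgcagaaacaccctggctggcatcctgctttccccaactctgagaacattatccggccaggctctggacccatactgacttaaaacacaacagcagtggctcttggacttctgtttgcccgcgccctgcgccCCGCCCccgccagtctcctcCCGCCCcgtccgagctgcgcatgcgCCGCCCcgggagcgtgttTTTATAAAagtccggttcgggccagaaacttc
Itgam held 2 GAGGAA matches and 1 GC box, and no TATAAA. Cxcr4 held 3 GC boxes, overlapping TATAAA matches on both strands, and no GAGGAA. The ETS core was also in the windows of Cd44 (2 matches), Itgb1 (1) and Cxcr2 (1), so that 4 of 6 windows had it, against 23.3% of all 32851 promoter windows. The GC box was likewise in 4 of 6 (Itgam, Itgb1, Itga4 and Cxcr4), against 32.7% of all windows, and TATAAA in 1 of 6, against 12.4%.

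On reads, Itgb2, Itgam and Selplg were higher in the hypoxia library, with ratios of 2.09 to 5.12, while Itgb1, Cd44 and Cxcr4 had no counts there. Levels are CPM (counts scaled to the library total), and ratios are hypoxia over normoxia. A gene was called higher or lower when it had at least 50 counts over both libraries, a ratio of at least 2-fold, and a 95% interval on reads that left out 1. The minimum of counts was met by 7 genes, and among these 7 there were 3 higher (Itgb2, Itgam and Selplg), 3 lower (Itgb1, Cd44 and Cxcr4) and 1 in neither class (Itga4). Over all 4215 genes with enough counts, 16.1% were higher and 66.9% lower. The median log2 ratio of the 7, which is the value of Itga4, was 0.78, against -1.95 over all genes, with a count of 0 taken as 3. Of all 4215 genes 2883 were at 0 in hypoxia, so their median depends on this choice of 3. The 2 medians are thus unlike measures. TMM scaling, which rests on genes counted in both libraries, shifts every log2 ratio by -0.80 (DESeq2 size factors by -0.75, the deposited TPM by -0.38). With TMM the median of the 7 was -0.03, against -2.75 over all genes. TMM left 1 gene called higher (Itgam) and 3 lower, where 11.9% of all genes were higher and 75.5% lower. DESeq2 size factors gave the same counts of 1 and 3 (12.1% and 75.0% of all genes). A housekeeping list gave 2 and 3 (15.6% and 68.2%), the deposited TPM 2 and 3 (14.1% and 71.1%), and totals without erythroid genes 3 and 3 (16.0% and 67.0%). The 3 genes with 0 counts in hypoxia were lower under each scaling, while the number of higher genes moved with it. All 5 other scalings lower every ratio, by factors from 0.573 (TMM) to 0.982 (totals without erythroid genes). Under them these 3 genes could therefore not lose their call, and only higher calls could be lost. With a 0 taken as 3 estimated molecules in place of 3 reads, none of these 3 genes was called lower (0 of 7). On estimated molecules no gene of the 7 met the rule in either direction, against 0.83% of all genes higher and 0.285% lower (0.19% and 1.04% with TMM).

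**Figure D1:**
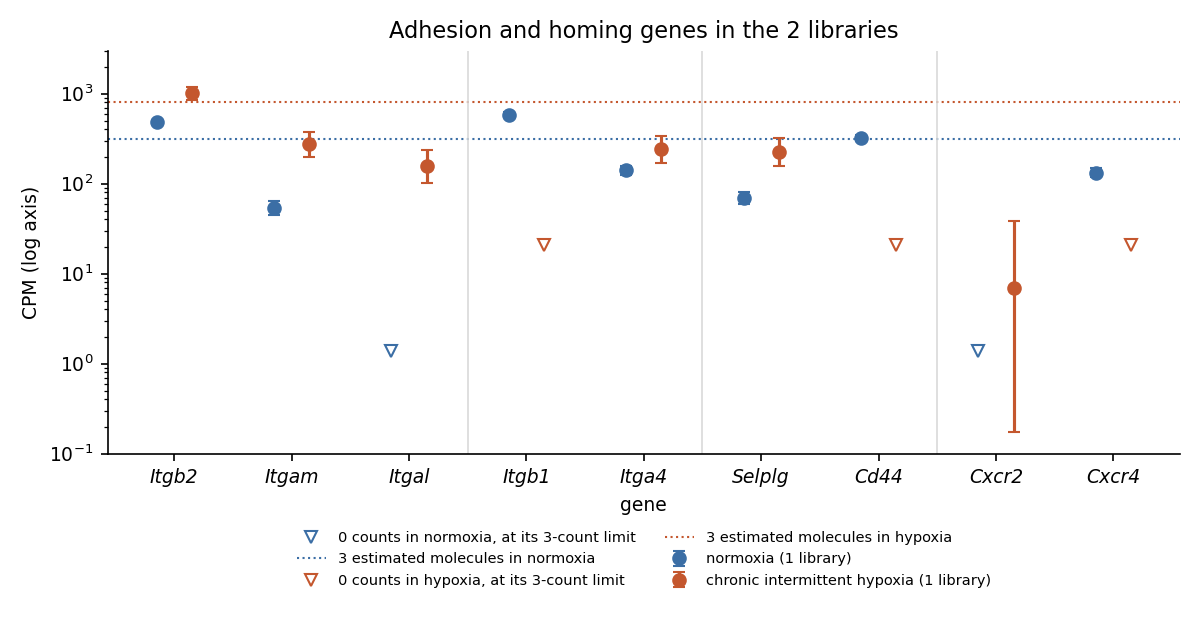
CPM of the 9 genes (log axis) in the normoxia and the hypoxia library, 1 library each, with exact 95% Poisson intervals on reads. Open triangles are genes with 0 counts, drawn at 3 counts (1.38 CPM in normoxia, 20.7 in hypoxia), and dotted lines mark 3 estimated molecules (316 and 807 CPM). Itgb2 alone lies above the dotted line of its library in both.

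Itgb2 (ENSMUSG00000000290, chr10:77530252-77565708, plus strand) encodes the beta-2 chain that all beta-2 integrins share. Positions of the 9 genes are those of GENCODE M21 on GRCm38. It had 1052 counts in normoxia and 147 in hypoxia, or 484 CPM (95% interval 456 to 515) and 1013 CPM (856 to 1191). This is a ratio of 2.09 (1.75 to 2.49 on reads), just past the 2-fold limit. Itgb2 ranked 336th among genes by counts in normoxia and 122nd in hypoxia. The ratio was 1.20 with TMM, 1.24 with DESeq2 size factors, 1.95 with a housekeeping list and 1.61 on the deposited TPM, so Itgb2 stayed above 1 under each while its call was lost. On estimated molecules its counts amount to 4.59 and 3.77, and the interval of the ratio (0.388 to 10.4) includes 1.

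Itgam (ENSMUSG00000030786, chr7:128062640-128118491, plus strand), the alpha-M chain, had 117 counts in normoxia and 40 in hypoxia, 53.9 CPM (44.6 to 64.6) and 276 CPM (197 to 376). The ratio was 5.12 (3.48 to 7.39 on reads) and 2.93 with TMM, with values between these under the other scalings. Its count of 40 in hypoxia is about that of 1 molecule (1.03). In GENCODE M21, 68.7% of the exonic bases of Itgam also belong to a read-through gene on the same strand (ENSMUSG00000108596, Gm49368). That identifier also carries the symbol Itgam in the deposited table and had 0 counts in both libraries. Not given in the sources used here was how reads shared by such genes were assigned, so the level of Itgam may cover only part of its exons.

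Itgal (ENSMUSG00000030830, chr7:127296260-127335138, plus strand), the alpha-L chain, had 0 counts in normoxia and 23 in hypoxia, 159 CPM (101 to 238). With the 0 taken as 3 counts its ratio was 115, and the interval on reads starts at 86.0. It is below the minimum of 50 counts and so not among the 7. Its 23 counts correspond to 0.590 of an estimated molecule, and 159 CPM lies under the 316 CPM of 3 molecules in normoxia. The summed share of the beta-2 genes was 0.0538% in normoxia, with an interval from 0.0508 to 0.0570. In hypoxia it was 0.145%, from 0.126 to 0.166. Their ratio was 2.69 (2.31 to 3.12 on reads, 0.650 to 11.3 on molecules) and 1.54 with TMM. The summed neutrophil markers were higher too, with a ratio of 5.63 (5.52 to 5.73 on reads, 4.69 to 6.77 on molecules). Of 11 measured markers 8 were higher and 3 lower, beside 16.1% and 66.9% of all genes. The 3 lower ones (Mmp8, Mmp9 and Mpo, named after their values were seen) had 0 counts in hypoxia. Among the 8 higher markers S100a8, a calprotectin subunit, had 10004 and 3561 counts and the surface marker Ly6g 0 and 110. The part of the neutrophil markers in the beta-2 ratio was not tested. In these bulk libraries more cells of a type and more RNA per cell cannot be told apart.

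Itgb1 (ENSMUSG00000025809, chr8:128685654-128733200, plus strand), the beta-1 chain, had 1271 counts in normoxia, the most of the 9 genes, and 0 in hypoxia. Its level in normoxia was 585 CPM (554 to 618). With the 0 taken as 3 counts it was 28.3-fold lower in hypoxia on reads, where the interval of the ratio ends at 0.0435. At the normoxia share, the hypoxia library would have held 84.9 reads of Itgb1, or 2.18 estimated molecules, and on molecules the interval of its ratio reaches 2.41. The summed macrophage markers were lower too, with a ratio of 0.163 (0.143 to 0.184 on reads, 0.0615 to 0.356 on molecules). Each of the 11 counted in normoxia was called lower, 9 of them at 0 in hypoxia. Over all 4215 measured genes 66.9% were lower and 2883 were at 0 in hypoxia. The part of the macrophage markers in the absence of Itgb1, Cd44 and Cxcr4 was not tested. Its partner Itga4 (ENSMUSG00000027009, chr2:79255426-79333123, plus strand), the alpha-4 chain, had 306 counts in normoxia and 35 in hypoxia, 141 CPM (126 to 158) and 241 CPM (168 to 336). The ratio of Itga4 was 1.71 (1.17 to 2.43 on reads), below 2-fold, and it turned to 0.981 with TMM (1.02 with DESeq2 size factors), so no direction can be given. The gene Cerkl on the opposite strand overlaps 8.04% of the exonic bases of Itga4, and the use of strand in counting was not given in the submitted notes.

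**Figure D2:**
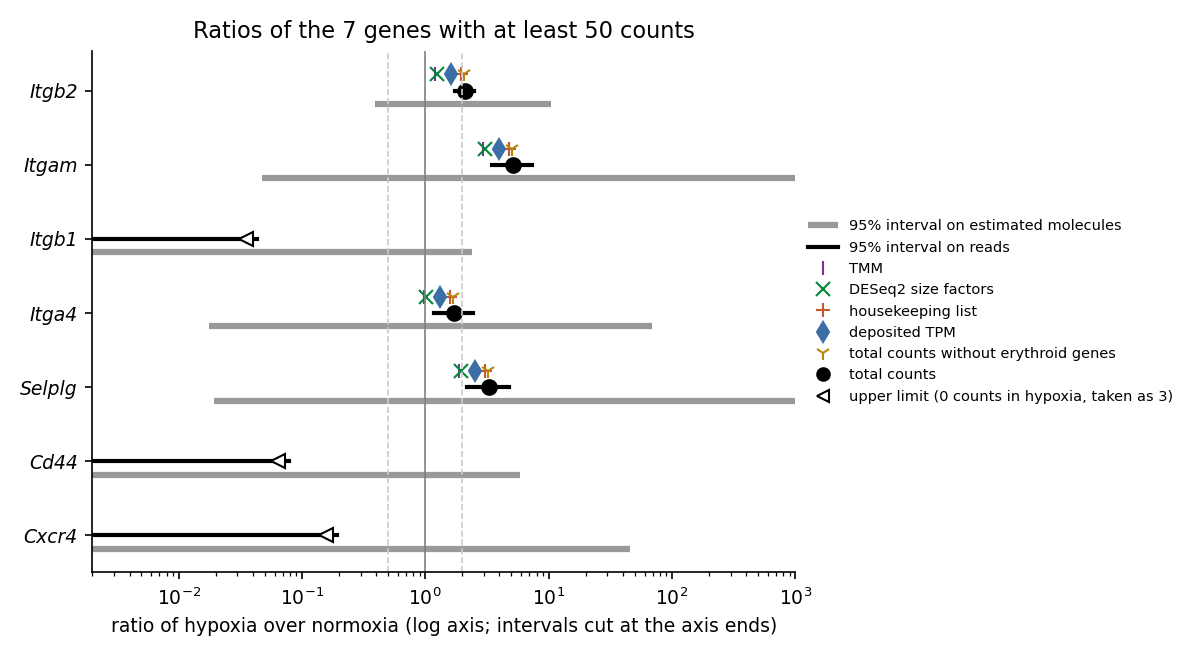
Ratios of hypoxia over normoxia (log axis) for the 7 genes with at least 50 counts, with 95% intervals on reads (black) and on estimated molecules (grey), and the ratios under 5 other scalings for genes counted in both libraries. Dashed lines mark 2-fold, and arrows at the left are upper limits on reads for genes with 0 counts in hypoxia. Each grey bar crosses 1.

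Selplg (ENSMUSG00000048163, chr5:113818536-113832644, minus strand) encodes the main P-selectin ligand of leukocytes (PSGL-1). It had 151 counts in normoxia and 33 in hypoxia, 69.5 CPM (58.9 to 81.6) and 227 CPM (157 to 319). Its ratio was 3.27 (2.17 to 4.79 on reads), and 1.87 with TMM and 1.95 with DESeq2 size factors, above 1 in each but short of 2-fold in these. Cd44 (ENSMUSG00000005087, chr2:102811141-102901665, minus strand), a receptor for hyaluronan that also carries E-selectin ligands, went the other way. It had 704 counts (324 CPM, 301 to 349) in normoxia and 0 in hypoxia. On reads it was 15.7-fold lower with the 0 taken as 3 counts (interval of the ratio up to 0.0786). At the normoxia share 47.0 reads were due in hypoxia, or 1.21 estimated molecules, and on molecules the interval of its ratio reaches 5.91.

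Cxcr4 (ENSMUSG00000045382, chr1:128588199-128592293, minus strand) is the receptor for Cxcl12, the chemokine that holds leukocytes in the bone marrow. Cxcr2 (ENSMUSG00000026180, chr1:74153989-74161246, plus strand) is a neutrophil receptor for Cxcl1 and Cxcl2. Cxcr4 had 287 counts in normoxia (132 CPM, 117 to 148) and 0 in hypoxia. On reads it was 6.39-fold lower with the 0 taken as 3 counts (interval of the ratio up to 0.194). In hypoxia, 19.2 reads or 0.492 of an estimated molecule would match its normoxia share. On molecules the interval of its ratio reaches 45.8, so its 0 gives no limit below 1 there. Cxcr2 had 0 counts in normoxia and 1 in hypoxia, which is too few for a ratio. So neither receptor was seen in both libraries, and Cxcr2 was not measurable at this depth.

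Whether a gene was found in hypoxia varied with its abundance. Normoxia held counts for 7 of the 9 genes and hypoxia for 6, with 4 shared (Itgb2, Itgam, Itga4 and Selplg). Of all genes counted in normoxia 25.0% were also counted in hypoxia, and of those counted in hypoxia 56.5% were counted in normoxia. Among genes with 50 to under 200 counts in normoxia 17.8% were found in hypoxia, and Itgam and Selplg, both in this class, were found. From 200 to under 500 counts the share was 20.0%, and here Itga4 was found and Cxcr4 was not. From 500 to under 1000 counts it was 40.8%, and Cd44 was not found. From 1000 to under 2000 counts it was 59.2%, with Itgb2 found and Itgb1 not, and from 2000 to under 5000 it was 86.5%. The absence of Cxcr4 and Cd44 was thus the more frequent outcome for genes of their abundance, and that of Itgb1 the less frequent.

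**Figure D3:**
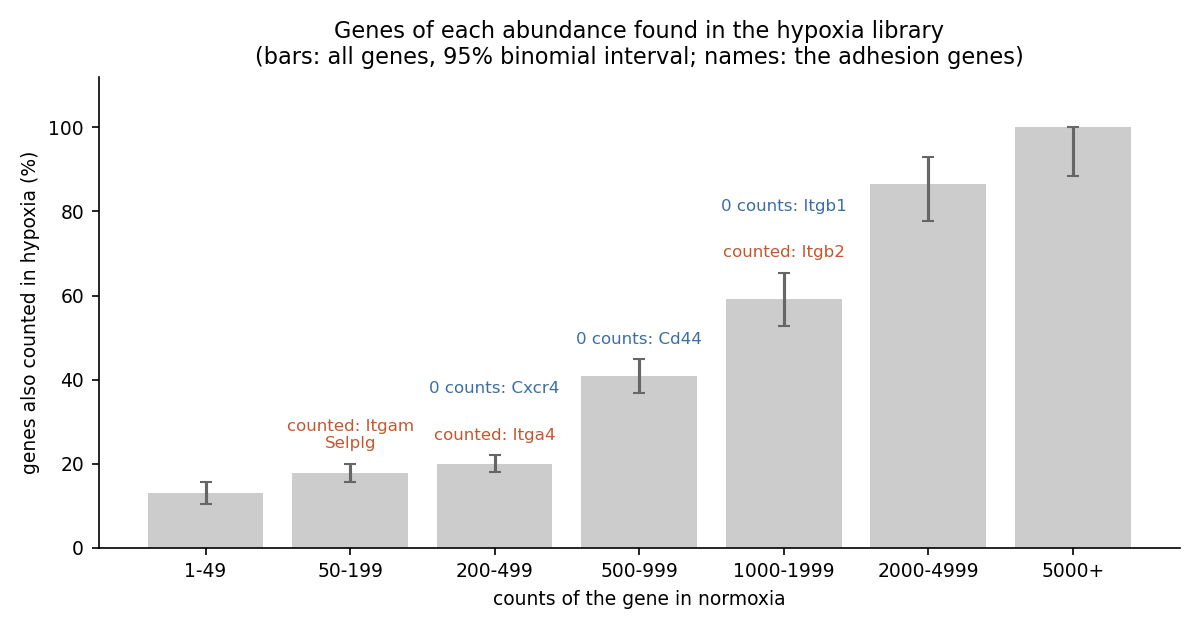
Share of genes also counted in hypoxia (bars, %, with exact 95% binomial intervals) by their counts in normoxia, with the 7 genes counted in normoxia named above their class. The share climbs from 12.9% below 50 counts to 100.0% at 5000 or more, and the adhesion genes lie between 50 and 2000 counts.

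The hypoxia counts of Itgam (40), Itga4 (35) and Selplg (33) lie within the quartiles of genes counted in hypoxia alone (26 to 52 over 757 genes), and Itgal (23) lies just under them. In normoxia Itga4, Selplg and Cxcr4 lie within the corresponding quartiles (136 to 388). Itgb2 was the 1 gene above the upper quartile in both libraries.

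Shares between genes of the same library need no scaling. Of the reads of Itgb2 and Itgb1 together, Itgb2 held 45.3% in normoxia (43.2 to 47.3) and 100% in hypoxia (97.5 to 100). On estimated molecules these intervals widen to 15.7 to 77.7 and 37.6 to 100 and overlap. Across the 5 integrin genes the beta-2 group held 42.6% of reads in normoxia (40.7 to 44.4) and 85.7% in hypoxia (80.7 to 89.8). Itgam held 27.7% of the reads of Itgam and Itga4 in normoxia (23.4 to 32.2) and 53.3% in hypoxia (41.4 to 65.0). Selplg held 17.7% of the reads of Selplg and Cd44 in normoxia (15.2 to 20.4) and 100% in hypoxia (89.4 to 100). In each pair the reads moved towards the beta-2 integrins or Selplg, and in each pair the intervals on molecules overlap. This direction was fixed by the ratios of the same genes given above, so the pairs add no separate observation of it. The comparison of 5 integrin genes also holds the reads of Itgb2 with Itgb1 and of Itgam with Itga4. Set against the neutrophil markers, beta-2 integrin genes held 2.85% of the combined reads in normoxia (2.69 to 3.02) and 1.38% in hypoxia (1.20 to 1.58), with intervals that are apart on reads and overlap on estimated molecules (0.946 to 6.47 and 0.475 to 3.11).

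**Figure D4:**
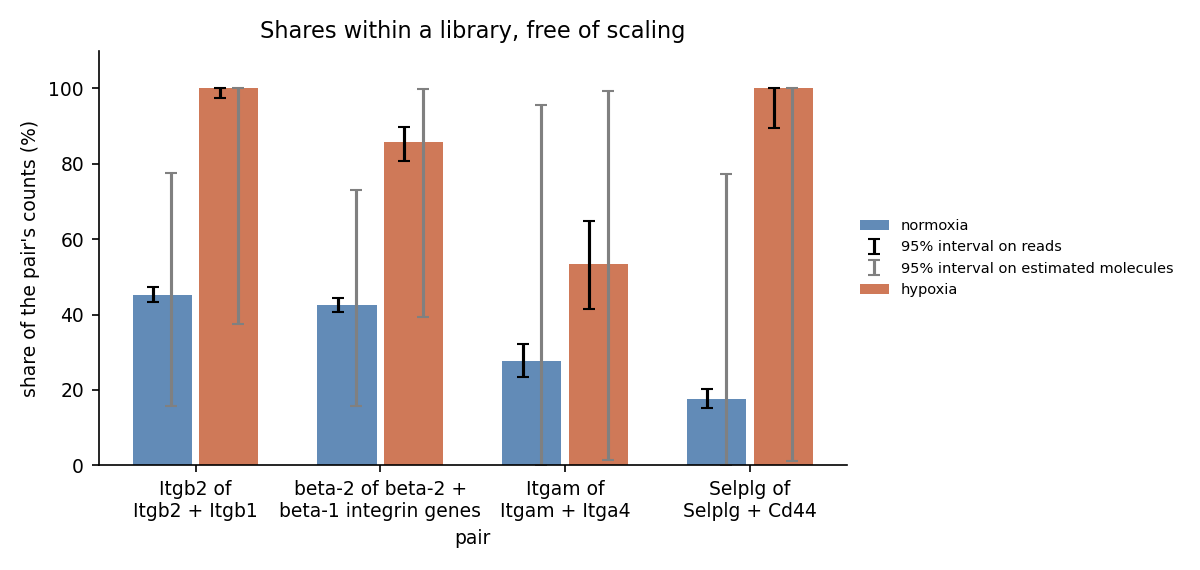
Share of reads (%) that the first gene or group of a pair holds in the normoxia and the hypoxia library, with exact 95% intervals on reads (black) and on estimated molecules (grey). The hypoxia bar is taller in all 4 pairs, from 53.3% to 100%, a direction fixed by the ratios of the same genes, while the grey intervals overlap.

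Levels of different genes were compared on the deposited TPM, which divides by gene length. In normoxia Itgb2 (290 TPM, 273 to 309) and Itgb1 (262 TPM, 248 to 277) led, and their counting intervals overlap. Cxcr4 (134 TPM), Cd44 (87.5 TPM) and Selplg (29.8 TPM) followed, with intervals apart from their neighbours. Itgam (19.6 TPM, 16.2 to 23.5) and Itga4 (18.4 TPM, 16.4 to 20.6) could not be put in order. This order rests on reads, and Cxcr4, Cd44 and Selplg came to 1.25, 3.07 and 0.659 estimated molecules, on which it was not assessed. In hypoxia Itgb2 stood first at 466 TPM (394 to 548). Itgam (77.1 TPM, 55.1 to 105) and Selplg (74.8 TPM, 51.5 to 105) were next and not separable, nor were Itgal (33.9 TPM, 21.5 to 50.9) and Itga4 (24.2 TPM, 16.9 to 33.7). The hypoxia order also rests on reads. Itgam, Selplg, Itgal and Itga4 came to 1.03, 0.846, 0.590 and 0.897 estimated molecules there, on which it was not assessed. The beta-2 chain exceeded the alpha-M chain 14.8-fold in normoxia and 6.05-fold in hypoxia in TPM. These folds and the place of Itgam share the limit of its read-through gene, since its TPM may cover only part of its exons. The beta-1 chain exceeded alpha-4 14.2-fold in TPM in normoxia, where their counts were 1271 and 306. TPM divides by length, and the exonic bases are 4081 for Itgb1 and 13978 for Itga4. In hypoxia alpha-4 had 35 counts (0.897 of an estimated molecule). Beta-1 had 0 there, where 2.18 molecules were due at the normoxia share.

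The summed share of all 9 genes was 0.179% in normoxia, with an interval from 0.173 to 0.185. It was 0.192% in hypoxia, from 0.170 to 0.216. Their ratio, 1.07, has an interval on reads of 0.948 to 1.21. The sum joins genes that went opposite ways. Without Itgb1, the gene with most counts, the ratio was 1.60 (1.41 to 1.81 on reads), and without Itgb2, the gene with most CPM, it was 0.697 (0.581 to 0.830). With TMM the ratio of all 9 was 0.615, so no direction can be given for the set as a whole.

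Other genes of the same steps were called about as often as all genes. In 5 further lists 49 genes had enough counts, of which 6 were higher and 34 lower, beside 16.1% and 66.9% of all genes. Of the 49, 30 had 0 counts in hypoxia, beside 2883 of all 4215. Their median log2 ratio was -2.04 with 0 taken as 3 counts, near the -1.95 of all genes. With TMM 4 were higher and 39 lower, beside 11.9% and 75.5% of all genes. The counts of each list below are read against these shares, and with 4 to 23 genes a list they are descriptions. Of 22 other integrin subunits 5 were counted in normoxia and 0 in hypoxia, where 25.0% of all genes counted in normoxia were found (12.9% to 20.0% in the classes below 500 counts). The 5 were led by Itgb3 (414 counts), Itgb5 (298) and the fibronectin receptor chain Itga5 (197), and 3 of the 4 measured were lower while Itga8 (51 counts) was in neither class. Rap and talin switch integrins to their binding state. Of 23 measured genes of integrin activation and adaptors, 2 were higher and 17 lower (16.1% and 66.9% of all genes). The small GTPase Rap1b (1996 and 60 counts) stood at 0.450 (0.342 to 0.582 on reads). Talin, Tln1 (929 and 42), stood at 0.677 (0.484 to 0.922), short of 2-fold. The adaptor Lims1 had 1551 and 0 counts. The higher ones were exchange factors for small GTPases. For Rasgrp4, with 136 and 156 counts, the ratio was 17.2 (13.6 to 21.8 on reads), and on estimated molecules the interval starts at 1.20. That start was 0.687 with TMM, 0.714 with DESeq2 size factors and 0.921 on the deposited TPM, so the call on molecules was lost with these. For Rasgrp2, which activates Rap1, with 166 and 29 counts, it was 2.62 (1.70 to 3.90 on reads) and 1.56 with DESeq2 size factors.

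For selectins and the making of their ligands, 2 of 9 measured genes were higher and 3 lower (16.1% and 66.9% of all genes). The number of lower genes was 7 with TMM, where 75.5% of all genes were lower. Cd24a, a P-selectin ligand (4896 and 211 counts), stood at 0.645 (0.559 to 0.741). On estimated molecules Cd24a was called lower with TMM, where 1.04% of all genes were, and under no other scaling. The cytoskeletal linker moesin, Msn (1610 and 58), stood at 0.539 (0.408 to 0.701). The sialoglycoprotein Spn (leukosialin) had 0 and 56 counts, and Glg1, an E-selectin ligand, 129 and 36, which gives 4.18 (2.80 to 6.09 on reads). Both were higher under all 6 scalings.

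Of 9 measured homing receptors outside the set, 1 was higher and 8 lower (16.1% and 66.9% of all genes). The higher gene was Ptafr, the receptor for platelet-activating factor, with 0 and 89 counts. Ccr2, which recruits monocytes, had 2308 and 0 counts, the fractalkine receptor Cx3cr1 1170 and 6, and the complement receptor C5ar1 622 and 0. On estimated molecules the interval of Ccr2 reaches 1.13 on total counts. Ccr2 was called lower on molecules with TMM, where 1.04% of all genes were, and with DESeq2 size factors, but under no other scaling. Ccr2 is also among the monocyte markers and Cx3cr1 among the macrophage markers. Among counter-ligands, 1 of 4 measured genes was higher and 3 lower (16.1% and 66.9% of all genes). Cd47, the "don't eat me" signal that also binds integrins, stood at 2.32 (2.05 to 2.61 on reads; 2008 and 311 counts) and at 1.33 with TMM. The complement component C3, whose cleaved fragment binds alpha-M beta-2, stood at 0.379 (0.260 to 0.535; 1303 and 33 counts). Vcam1 (1493) and the fibronectin gene Fn1 (1601), both ligands of alpha-4 beta-1, had 0 in hypoxia.

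**Figure D5:**
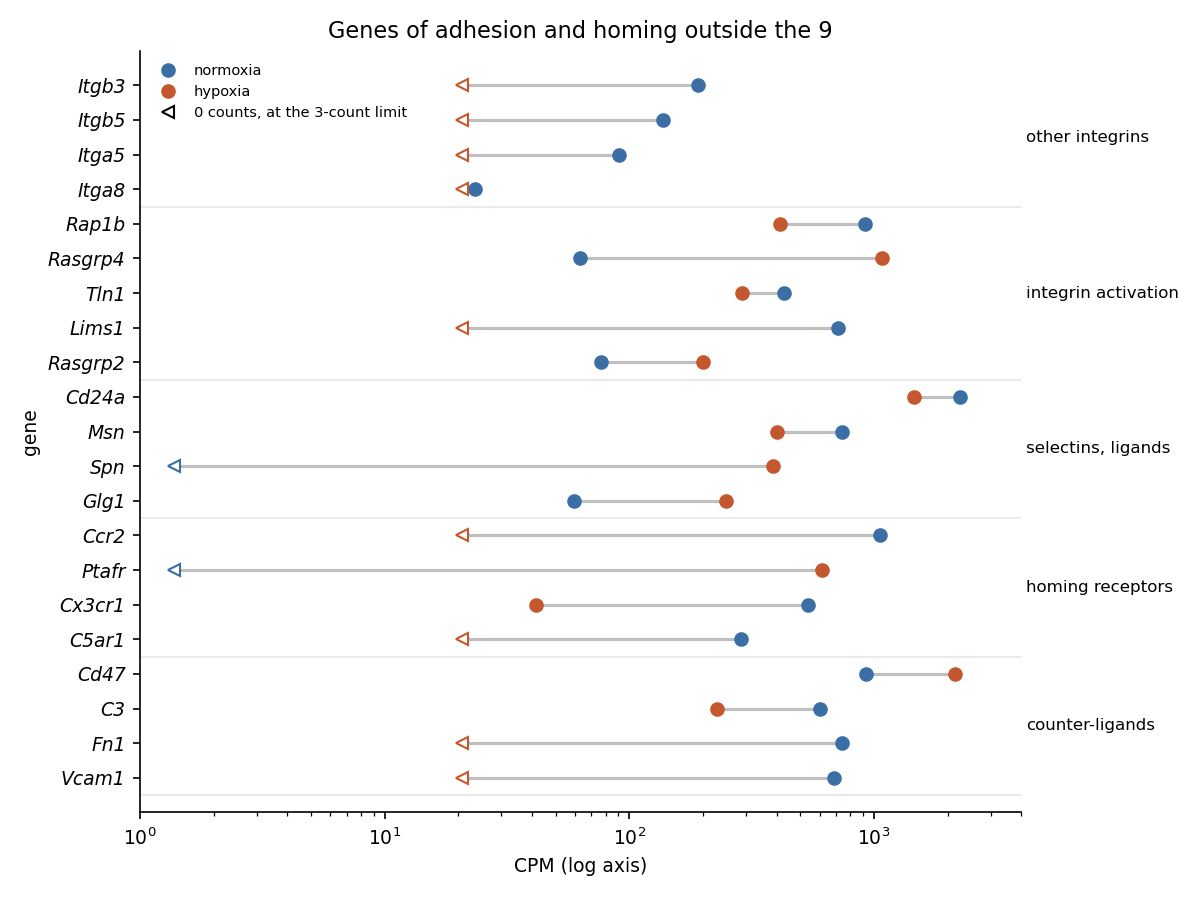
CPM (log axis) in normoxia and hypoxia of the genes named from 5 lists of adhesion and homing, with open triangles for 0 counts at the 3-count limit. Rasgrp4, Rasgrp2, Spn, Glg1, Ptafr and Cd47 lie higher in hypoxia and the other genes lower.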

How the data were processed

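Cells were lysed in Trizol and NEBNext Ultra II kits gave the libraries, per the labels' protocols. The submitters' processing notes list STAR 2.5.2b, bcl2fastq 2.20 and, from Subread 1.5.2, featureCounts. Not given in the sources used here were genome build, annotation and strand setting. For 49315 genes the authors deposited raw counts, with no normalization, and TPM, which divides by gene length. For a given gene, TPM per count was 11.5 times higher in hypoxia than in normoxia over nearly all genes, so TPM adds no separate measurement. Genes without a symbol (174) held 500 counts in normoxia (0.0230%) and 0 in hypoxia, and stay in the totals.

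Ratios on total counts carry exact conditional binomial (Clopper-Pearson) 95% intervals, and shares exact binomial ones. They cover counting error only. A 0 was taken to allow 3 counts. With 1 library per group no test across conditions was run. Intervals on estimated molecules divide counts by 229 or 39, which assumes that most genes found in 1 library alone stem from 1 molecule. TMM factors came from edgeR 4.0.16 and size factors from DESeq2 1.42.0 in R 4.3.3, and the rest from Python 3.11.15 with SciPy 1.17.1. Total counts were the main scale because TMM uses 1158 genes counted in both libraries. The interval code was tested on simulated independent counts. That cannot show how well intervals on reads cover data with many reads per molecule. The 9 genes and all lists were chosen with earlier results of these data known. Named genes outside the 9 are the 4 with most CPM in each of the 5 lists, any other called higher there, and the 2 leading and the defining cell type markers; a gene this rule names is not reported here. Gene overlaps come from GENCODE M21 (GRCm38), which may not be the authors' build. With 2 libraries, genes were not ranked by likeness of pattern.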

Additional observations from a re-analysis of the deposited data

How the results depend on the processing

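The number of the 9 genes called higher went from 3 to 1 with TMM factors and with DESeq2 size factors. It was also 1 with a 4-fold limit, where 456 of all 4215 genes were higher. A minimum of 200 counts left 5 genes measured, without Itgam and Selplg. Of these 5, 1 was higher, beside 308 of all 2717 genes. The number called lower stayed at 3 under each scaling, count minimum and fold limit tried. These 3 were out of 7 genes, out of 9 with no minimum and out of 5 with a minimum of 200 counts. Under the other scalings a loss of these calls was not possible, since each lowers every ratio. Of all genes, 2046 of 4215 were lower with a 4-fold limit and 1953 of 2717 with a minimum of 200 counts. With no minimum, 2818 of 5532 were lower. For the 9 genes the number went to 0 when a count of 0 was taken as 3 estimated molecules in place of 3 reads. The ratio of the summed share, 1.07, turned to 0.615 with TMM, 0.639 with DESeq2 size factors, 0.824 on the deposited TPM and 0.697 without Itgb2, and went to 1.60 without Itgb1, where its interval no longer includes 1. The cause was not tested. Among 35 single ratios under 5 other scalings, 28 kept direction and call, 6 kept direction and lost the call (Itgb2 and Selplg), and 1 turned, Itga4 at 0.981 with TMM. The 28 include all ratios of Itgb1, Cd44 and Cxcr4, which could not change, as each scaling lowers every ratio. They also include the other ratios of Itga4, which had no call to lose. Its interval on reads included 1 with DESeq2 size factors (0.697 to 1.45) and on the deposited TPM (0.899 to 1.87). Over the 5 further lists, the 6 higher of 49 measured genes became 2 of 33 with a minimum of 200 counts. Halving the reads per molecule, or TMM, left 0 of the 7 genes called on estimated molecules. Leaving out Itgb2, rescaling the further lists and rescaling the molecule intervals of Rasgrp4, Ccr2 and Cd24a were added after the data were seen. Depth in hypoxia, about 3719 estimated molecules, limits each statement on a gene with 0 counts there. No paired analysis was possible because each group had 1 library.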
